A study of Rattus norvegicus with 12 samples.

Results

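Heme, red cell and iron handling genes were followed in a pelvic floor muscle, the rat pubocaudalis, after a birth injury with and without lactation. The set held 10 genes, found in the count table by symbol. They were the red cell transcripts Hba-a1, Hbb, Alas2 and Slc4a1 (4 genes) and the tissue iron genes Tfrc, Hmox1, Slc40a1, Fth1, Ftl1 and Slc11a1 (6 genes). The table listed 30206 genes, and 11 of its rows carried these symbols because Ftl1 had 2 rows. The second Ftl1 row (ENSRNOG00000020843) held at most 2 counts in any library and did not pass the filter on low counts, so 10 rows were tested and Ftl1 below is ENSRNOG00000064385.

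All rats were female Sprague-Dawley, 3 months old and pregnant. On day 20 of gestation every one of them received a simulated birth injury (SBI), a vaginal balloon distention, so no group was uninjured. After delivery the rats were assigned at random to lose their pups (non-lactating) or to nurse them (Lac), and the muscle was taken 1 or 3 weeks after SBI. Non-lactating groups are called 1wk SBI and 3wk SBI, and the nursing ones carry the ending + Lac (1wk SBI + Lac, 3wk SBI + Lac). Each of the 4 groups had 6 rats, whose RNA was combined by 2 into 3 pools, 1 library per pool. Pools are the n below, so p-values measure the spread between pools and not between single rats.

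Red blood cells lose their nucleus but leave the marrow as reticulocytes that still hold globin mRNA, so any tissue taken with its blood contains some of it. Hba-a1 encodes an alpha chain and Hbb a beta chain of hemoglobin, Alas2 the first enzyme of heme synthesis in erythroid cells, and Slc4a1 the band 3 anion exchanger of the red cell membrane. Muscle and its macrophages handle the iron itself: Tfrc is the receptor that takes up transferrin-bound iron, Hmox1 is heme oxygenase 1, which opens the heme ring and frees its iron, Fth1 and Ftl1 are the heavy and light chains of the ferritin shell that stores iron, Slc40a1 is ferroportin, the iron exporter, and Slc11a1 is a metal transporter of the phagosome membrane in macrophages.

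The letters before the start of 3 red cell genes are shown because these genes were higher together with lactation at 1 week. Slc4a1, which was higher with them, had no window among those given. RefSeq promoter windows of the rat build GRCr8 were given for 5 of the 10 genes, Hba-a1, Hbb, Alas2, Tfrc and Slc40a1. The 250 bases before the RefSeq start are printed for the first 3, 5′ to 3′ on the gene's own strand, at chr10:15842581-15842830 (minus) for Hba-a1, chr1:167663722-167663971 (minus) for Hbb and chrX:22895200-22895449 (plus) for Alas2. Capitals mark the words GATAA and GATAG where an A or a T precedes them, which GATA factors of red cell development can bind, and the word CACCC, which KLF factors can bind, searched on both strands.
Hba-a1: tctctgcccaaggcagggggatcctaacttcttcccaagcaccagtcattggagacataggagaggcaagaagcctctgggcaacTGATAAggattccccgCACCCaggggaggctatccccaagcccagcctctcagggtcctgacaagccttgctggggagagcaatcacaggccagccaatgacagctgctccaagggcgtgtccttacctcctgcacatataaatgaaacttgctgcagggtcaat
Hbb: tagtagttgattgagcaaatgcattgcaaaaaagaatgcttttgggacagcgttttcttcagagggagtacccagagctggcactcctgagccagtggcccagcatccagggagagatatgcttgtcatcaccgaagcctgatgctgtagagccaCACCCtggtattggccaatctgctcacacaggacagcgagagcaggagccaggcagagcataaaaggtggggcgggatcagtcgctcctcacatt
Alas2: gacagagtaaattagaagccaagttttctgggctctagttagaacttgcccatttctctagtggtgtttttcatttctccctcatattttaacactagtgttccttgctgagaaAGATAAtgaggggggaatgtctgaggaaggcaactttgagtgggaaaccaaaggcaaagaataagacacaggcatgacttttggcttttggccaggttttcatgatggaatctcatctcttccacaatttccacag

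Hba-a1 held 1 GATA word and 1 CACCC, Hbb 1 CACCC and no GATA word, and Alas2 1 GATA word and no CACCC. Among all 33469 windows of the same length, 27% held a GATA word and 49.2% held CACCC, so each word alone is common. Tfrc held CACCC at 2 places, and Slc40a1 held neither. The core of the antioxidant response element, TGACNNNGC, which Nrf2 can bind, was found at 1 place in Hba-a1, in none of the other 4 genes and in 10.1% of all windows. CAGTGN, the loop letters of an iron responsive element, was searched on the sense strand of the whole window with 50 further bases after the start and was found in Hbb alone among the 5 genes and in 34.9% of all windows. The Hbb match lay among the printed bases before the start, so outside a transcript from that start. With only 50 bases after the start, the search cannot tell whether any of the 5 transcripts carries such an element. A match describes letters only, and the RefSeq starts were not checked here against transcripts of this muscle. The Alas2 window ends in cag after a stretch rich in c and t, letters that resemble the end of an intron. Its start is therefore in doubt, and its words may not be those of a promoter.

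Total counts per library were 41201635 to 51662983 without and 30862144 to 39844090 with lactation at 1 week, and 10082734 to 75634391 without and 10704307 to 70187854 with it at 3 weeks. Values are CPM, that is, counts set in proportion to each library's TMM-adjusted total, and folds are on the log2 scale with a standard error (SE) from edgeR, fitted on 14599 genes in all 12 libraries. A gene was called when its Benjamini-Hochberg adjusted p was under 0.05 and its absolute log2 fold change over 1. The skeletal muscle markers fit the labelled tissue, at a summed level of 81371 to 200160 CPM, and all 10 were counted in every library. The 3-week values were deposited with decimals and the 1-week values as whole counts, and 30 genes had 0 counts in all 1-week libraries but at least 100 over the 3-week ones, with 0 genes the other way round. Time and counting therefore cannot be told apart in comparisons of 3 weeks with 1 week, whereas lactation was compared within a time point. The lactation and time comparisons share groups and are not independent of each other.

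The red cell genes stood higher in lactating rats at 1 week, in all 4 genes and with no overlap between pools, but none of the 4 was called by edgeR. Hba-a1 read 148, 126 and 221 CPM in the 3 pools of 1wk SBI and 437, 403 and 308 CPM in those of 1wk SBI + Lac. The lowest lactating pool lay above the highest non-lactating one. Means were 165 ± 49.6 and 383 ± 67.1 CPM (SD, n = 3), or 1.22 higher on the log2 scale (SE 0.29; edgeR adjusted p = 0.0679). Hbb read 121, 114 and 189 CPM without lactation and 332, 338 and 243 CPM with it. The log2 fold change was 1.11 (SE 0.26; edgeR adjusted p = 0.0679).

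The less abundant red cell genes showed the same order of groups. Alas2 read 1.81, 1.99 and 3.87 CPM in 1wk SBI and 8.66, 6.10 and 3.99 CPM in 1wk SBI + Lac. The third pool of each group lay close to the other, and the difference of 1.30 on the log2 scale (SE 0.45) had an edgeR adjusted p of 0.144. Slc4a1 had 20, 15 and 23 counts in 1wk SBI and 47, 42 and 28 counts in 1wk SBI + Lac, although these lactating libraries were the shallower ones. Its log2 fold change was 1.71 (SE 0.60; edgeR adjusted p = 0.145).

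Of the 10 genes, 0 were called at 1 week, where 0.253% of all genes tested were called, and 0 passed the adjusted p at any fold, where 0.569% of all genes did. At an unadjusted p under 0.05, 6 of the 10 passed, against 18.9% of all genes. Pools did not overlap in 7 of the 10 genes, 4 higher and 3 lower, against 28.4% of all genes tested (14.3% higher and 14.1% lower). The calls depended on the test. The study, which used DESeq2, listed the 4 red cell genes as higher with lactation at 1 week. DESeq2 on all 12 libraries called 2 of the 10 genes, Hba-a1 (adjusted p = 0.00083) and Hbb (adjusted p = 0.0014), DESeq2 restricted to the 6 pools harvested at 1 week called the 4 red cell genes (adjusted p from 3.76e-06 to 0.0130), and edgeR on those 6 pools called Hba-a1 and Hbb (adjusted p = 0.0384 and 0.0436). One pool also decided them, since without the third 1wk SBI pool edgeR called Hba-a1 (log2 fold change 1.48, adjusted p = 0.0222) and Hbb (1.37, adjusted p = 0.0183). These fits also called more of all genes than the main fit, which called 37 of 14599. DESeq2 called 188 of 13972 genes on all 12 libraries and 332 of 14916 on the 6 pools. With edgeR 110 of 14311 were called on the 6 pools and 235 of 14803 without the third 1wk SBI pool.

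**Figure D1:**
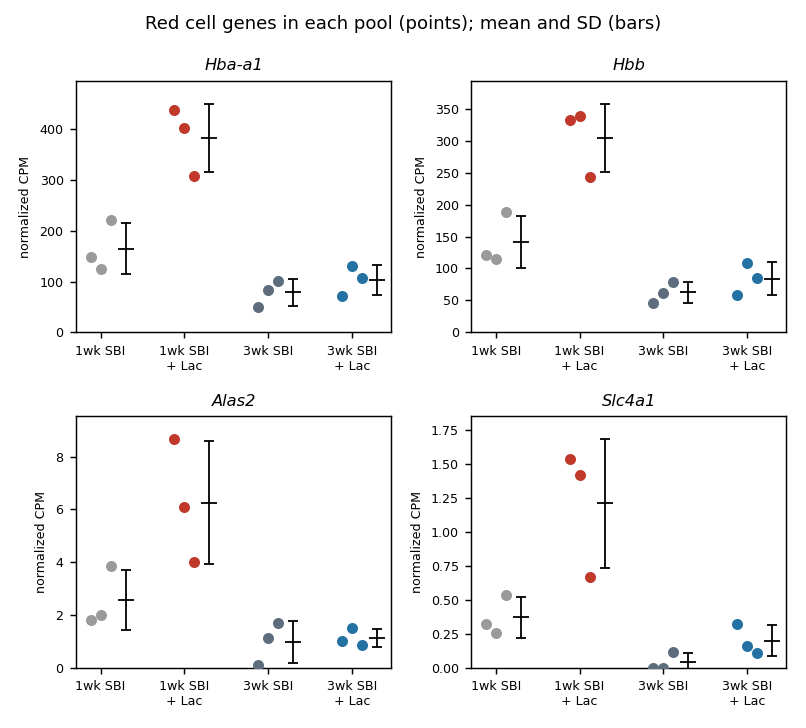
Normalized CPM of the 4 red cell genes in each pool of the 4 groups, with the mean and SD of 3 pools beside the points (SD bars are cut at 0). At 1 week every lactating pool lies above every non-lactating one, and for Hba-a1 the 3-week pools of both groups lie at 50.6 to 131 CPM.

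At 3 weeks the hemoglobin genes were low in both groups and their pools overlapped. Hba-a1 read 50.6, 83.6 and 102 CPM in 3wk SBI and 72.4, 131 and 108 CPM in 3wk SBI + Lac. Its log2 fold change of 0.39 (95% interval -0.24 to 1.02) had an adjusted p of 0.467 by edgeR. Hbb ran from 46.6 to 79.6 CPM without lactation and from 58.2 to 109 CPM with it, with a log2 fold change of 0.41 (95% interval -0.16 to 0.99; edgeR adjusted p = 0.399).

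Alas2 and Slc4a1 had few counts in several 3-week libraries. Alas2 had 1, 18 and 142 counts in 3wk SBI and 31, 92 and 8 counts in 3wk SBI + Lac, and its log2 fold change of 0.02 had an interval from -1.12 to 1.16. Slc4a1 had 0, 0 and 10 counts in 3wk SBI and 10, 10 and 1 counts in 3wk SBI + Lac. These counts leave its lactation difference undetermined at this depth (log2 fold change 1.44, 95% interval -0.34 to 3.22).

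Whether the lactation effect itself changed between 1 and 3 weeks was tested with an interaction term. The difference of the effects was -0.82 (SE 0.40) for Hba-a1, -0.69 (SE 0.37) for Hbb and -1.27 (SE 0.69) for Alas2 on the log2 scale. None of the 10 genes passed, all with an adjusted p of 0.999 by edgeR, and 0.00685% of all genes were called. At an unadjusted p under 0.05, 1 of the 10 passed, Slc40a1, against 4.42% of all genes.

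Hba-a1, Hbb and Alas2 fell between 1 and 3 weeks in lactating rats. Hba-a1 went from 383 ± 67.1 to 104 ± 29.6 CPM (SD, n = 3), a log2 fold change of -1.88 (SE 0.29; edgeR adjusted p = 0.0105). Hbb went from 305 ± 53.1 to 84.2 ± 25.6 CPM, with -1.85 (SE 0.27; edgeR adjusted p = 0.00654), and Alas2 from 6.25 ± 2.34 to 1.13 ± 0.325 CPM, with -2.38 (SE 0.49; edgeR adjusted p = 0.0313). These 3 genes were called, and 0.774% of all genes were called in this comparison. Slc4a1 had -2.49 and missed the cutoff (edgeR adjusted p = 0.0671). All 4 genes had pools lower with no overlap, as did 14.7% of all genes. 

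The Hbb call of this comparison held without each of the 6 pools in turn. The call of Hba-a1 was lost without the first (adjusted p = 0.0519, edgeR) or the third (adjusted p = 0.0510, edgeR) 3wk SBI + Lac pool, and that of Alas2 without any 1 of the 6 (adjusted p from 0.0544 to 0.144, edgeR).

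In non-lactating rats the same 4 genes were lower at 3 weeks with no overlap between pools, as were 11.4% of all genes. Hbb went from 141 ± 41.2 to 62.8 ± 16.5 CPM (SD, n = 3) and was the 1 gene called, with a log2 fold change of -1.16 (SE 0.27; edgeR adjusted p = 0.0288), where 1.46% of all genes were called. Hba-a1 gave -1.06 (SE 0.29; edgeR adjusted p = 0.0575). Alas2 gave -1.11 and Slc4a1 -2.22, with adjusted p of 0.211 and 0.114 by edgeR. The Hbb call was lost without any 1 of 5 pools, namely the 3 pools of 1wk SBI and the first and second of 3wk SBI (adjusted p from 0.0552 to 0.120, edgeR). Without the third 3wk SBI pool Hba-a1, Hbb and Slc4a1 were called, and Slc4a1 then had no count left in 3wk SBI. In that fit 554 of 14763 genes were called.

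The 2 hemoglobin chains kept one proportion throughout. Within a library the ratio of Hba-a1 to Hbb counts was 1.16 ± 0.06 without and 1.26 ± 0.06 with lactation at 1 week, and 1.23 ± 0.13 without and 1.24 ± 0.03 with it at 3 weeks (SD, n = 3), and its full range over the 12 libraries was 1.09 to 1.34. Alas2 came to 12.2 to 17.5 counts per 1000 Hba-a1 counts in 1wk SBI and to 13.0 to 19.8 in 1wk SBI + Lac, so the groups overlapped although both genes were higher with lactation. Such ratios need no normalization between libraries. Reads of Hba-a1 may be shared with near-identical alpha chain copies. The separate row of Hba-a3 averaged 3.02 CPM in 1wk SBI and 5.28 CPM in 1wk SBI + Lac, with a log2 fold change of 0.81 (edgeR adjusted p = 0.366).

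**Figure D2:**
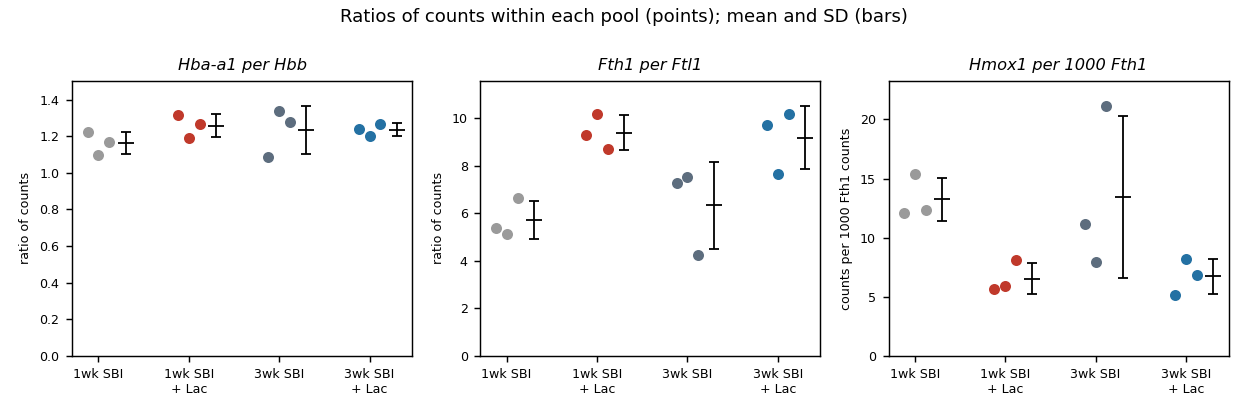
Ratios of counts within each pool of the 4 groups, for Hba-a1 over Hbb, Fth1 over Ftl1, and Hmox1 per 1000 Fth1 counts, with the mean and SD of 3 pools. The hemoglobin ratio stays between 1.09 and 1.34, whereas the ferritin ratio is above 7.6 in all 6 lactating pools and below it in all 6 non-lactating ones.

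Further red cell genes had a higher summed level with lactation at 1 week, at 854 to 1153 CPM in 1wk SBI and 1290 to 1375 CPM in 1wk SBI + Lac, with no overlap, and an overlapping one at 3 weeks (1209 to 1371 and 1345 to 1402 CPM). Of 32 further symbols, 12 passed the filter on low counts, 0 passed the adjusted p in either lactation comparison, and their median log2 fold change was 0.30 at 1 week and 0.01 at 3 weeks, against -0.004 and -0.02 over all genes tested. At 1 week 5 of the 12 were higher and 1 lower with no overlap, where 14.3% and 14.1% of all genes were. The smallest adjusted p at 1 week belonged to Sptb, a beta spectrin of the membrane skeleton, with 332 ± 35.4 against 485 ± 34.5 CPM (SD, n = 3; log2 fold change 0.55, edgeR adjusted p = 0.0556). Tmcc2 (0.58, edgeR adjusted p = 0.0654) and Bpgm, which makes 2,3-bisphosphoglycerate (0.44, edgeR adjusted p = 0.0925), came next. Muscle itself expresses several of these genes. Ank1 (means 445 and 560 CPM at 1 week without and with lactation) and Sptb made up most of the sum. From 1 to 3 weeks the mean sum went from 998 to 1302 CPM without lactation and from 1340 to 1381 CPM with it. It thus did not follow the fall of Hba-a1, Hbb, Alas2 and Slc4a1 over time. Regulators and markers of red cell precursors ranged widely in total counts over the 12 libraries, from Tal1 at 1533, Nfe2 at 145 and Epor at 132 to Klf1 at 51, Gata1 at 33, Ahsp at 17 and Rhag at 0. At 1 week the means without and with lactation were 3.16 and 2.74 CPM for Tal1, which other cells also express, 0.085 and 0.21 CPM for Klf1, and 0.042 and 0.16 CPM for Gata1. They were lower with lactation for Nfe2 (0.42 and 0.32 CPM), Epor (0.33 and 0.24 CPM) and Ahsp (0.027 and 0.022 CPM). Nfe2 and Epor were tested and did not pass (log2 fold changes -0.40 and -0.49, edgeR adjusted p = 0.744 and 0.783). Klf1, Gata1, Ahsp and Rhag did not pass the filter on low counts and were not tested. These 7 genes were chosen after their values were seen.

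Of the 6 tissue iron genes, Hmox1, Slc40a1 and Ftl1 had lower values with lactation at 1 week, with no overlap between pools, and none of them was called. Hmox1 read 11.3, 14.0 and 12.7 CPM in 1wk SBI and 5.57, 5.90 and 8.50 CPM in 1wk SBI + Lac, so every lactating pool lay below every non-lactating one. Means were 12.6 ± 1.35 and 6.66 ± 1.61 CPM (SD, n = 3), with a log2 fold change of -0.92 (SE 0.27; edgeR adjusted p = 0.106). At 3 weeks it read 10.6, 7.68 and 17.6 CPM without lactation and 4.88, 8.41 and 6.92 CPM with it. The pools overlapped, and the log2 fold change was -0.86 (SE 0.28; edgeR adjusted p = 0.110).

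Single pools moved the 3-week value of Hmox1. Without the second 3wk SBI pool it was called (log2 fold change -1.09, adjusted p = 0.0454, edgeR), as were 136 of 15008 genes. Without the third the value was -0.41 (adjusted p = 0.479, edgeR). With DESeq2 on all 12 libraries Hmox1 was at -0.85 and passed the adjusted p only (0.0468), as 1079 of 13603 genes passed it at any fold.

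Ferroportin was the tissue iron gene that passed the adjusted p. Slc40a1 read 18.0, 17.5 and 26.2 CPM in 3wk SBI and 11.6, 11.4 and 12.0 CPM in 3wk SBI + Lac. All lactating pools lay below all non-lactating ones, as in 10.4% of all genes, at 20.6 ± 4.91 against 11.7 ± 0.282 CPM (SD, n = 3). It fell by a log2 fold change of -0.84 (SE 0.15, 95% interval -1.16 to -0.53; edgeR adjusted p = 0.0110), which passed the adjusted p and missed the fold cutoff. So 0 of the 10 genes were called at 3 weeks, where 0.74% of all genes were called, and 1 of the 10 passed at any fold, where 2.54% of all genes did. The adjusted p rose to 0.0544 without the first and to 0.0521 without the second 3wk SBI + Lac pool (edgeR). Without the third 3wk SBI pool, the highest, the log2 fold change was -0.61 (adjusted p = 0.0414, edgeR).

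At 1 week Slc40a1 differed less. It read 20.8, 20.2 and 20.9 CPM in 1wk SBI and 16.0, 16.4 and 19.9 CPM in 1wk SBI + Lac, with no overlap and a log2 fold change of -0.24 (SE 0.14; edgeR adjusted p = 0.368). Within lactating rats it was lower at 3 weeks than at 1 week by -0.59 (SE 0.15; edgeR adjusted p = 0.0539), and within non-lactating rats the difference was 0.02 (95% interval -0.29 to 0.32).

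Of the ferritin chains, the light chain had lower values with lactation at 1 week with no overlap between pools, without passing the test, and the pools of the heavy chain overlapped. Ftl1 read 174, 178 and 154 CPM in 1wk SBI and 106, 98.3 and 121 CPM in 1wk SBI + Lac, with no overlap and a log2 fold change of -0.63 (SE 0.17; edgeR adjusted p = 0.0745). Like Hmox1, it passed the adjusted p but not the fold cutoff with edgeR on the 6 libraries of 1 week (adjusted p = 0.0357) and with DESeq2 on all 12 libraries (adjusted p = 0.0142), where Hmox1 had 0.0384 and 0.0282. At 3 weeks Ftl1 read 131, 128 and 197 CPM without lactation and 96.9, 134 and 99.5 CPM with it, and the pools overlapped (log2 fold change -0.46, SE 0.17; edgeR adjusted p = 0.135). Without the third 3wk SBI pool that value was -0.23 (adjusted p = 0.486, edgeR).

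Fth1 did not differ beyond the spread of the pools. It read 938, 912 and 1024 CPM in 1wk SBI and 988, 1001 and 1053 CPM in 1wk SBI + Lac, with a log2 fold change of 0.08 (95% interval -0.18 to 0.35). At 3 weeks it was 916 ± 72.6 CPM without and 995 ± 46.3 CPM with lactation (SD, n = 3), with a log2 fold change of 0.12 (95% interval -0.14 to 0.38). The sign of both turned negative when libraries were scaled by their totals, so a small change in either direction is not settled.

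As a ratio within a library, Fth1 over Ftl1 was 5.14 to 6.65 in 1wk SBI and 8.71 to 10.2 in 1wk SBI + Lac, and 4.23 to 7.52 in 3wk SBI and 7.67 to 10.2 in 3wk SBI + Lac. The groups did not overlap at either time. No test was run on this ratio, and with 3 pools against 3 an exact two-sided permutation test cannot give a p under 0.1. The ratio does not tell which chain differed. Near copies of both chains are listed apart and averaged under 5 CPM in every group: Ftl1l1 and Ftl1-ps14 for the light chain, and Fth1-ps5 for the heavy one. Reads could be divided between such copies.

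**Figure D3:**
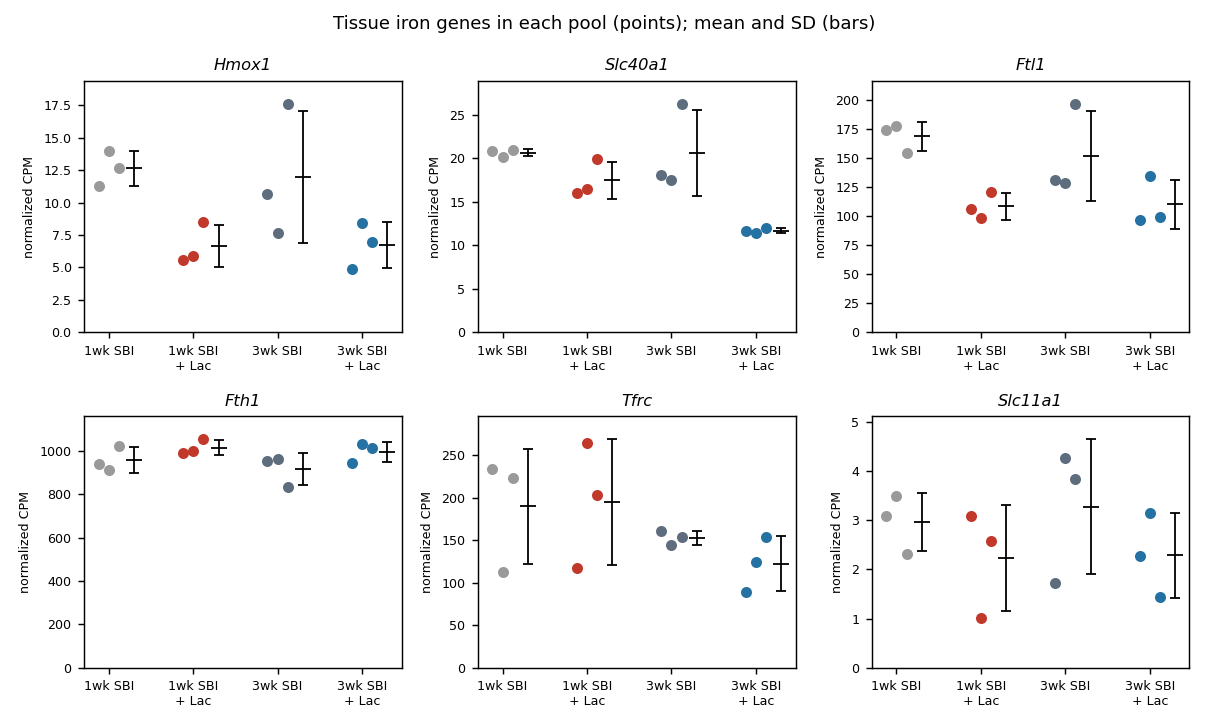
Normalized CPM of the 6 tissue iron genes in each pool of the 4 groups, with the mean and SD of 3 pools. Slc40a1 is at 11.4 to 12.0 CPM in the 3wk SBI + Lac pools and at 17.5 CPM or more in those of 3wk SBI, and the third 3wk SBI pool is the highest for Hmox1, Slc40a1 and Ftl1.

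Tfrc and Slc11a1 showed no lactation difference beyond the spread of the pools. Tfrc, the uptake receptor, read 235, 112 and 224 CPM in 1wk SBI and 117, 265 and 203 CPM in 1wk SBI + Lac. One pool of each group was low, and the log2 fold change of 0.04 had an interval from -0.67 to 0.74 (edgeR adjusted p = 0.968). At 3 weeks it was 153 ± 8.44 CPM without and 122 ± 32.4 CPM with lactation (SD, n = 3; log2 fold change -0.33, 95% interval -1.04 to 0.39). Slc11a1 was at 2.96 ± 0.594 against 2.23 ± 1.08 CPM at 1 week and at 3.28 ± 1.37 against 2.29 ± 0.863 CPM at 3 weeks (SD, n = 3). Its intervals, -1.23 to 0.41 and -1.34 to 0.36 on the log2 scale, leave room for changes of over 1 unit.

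Between 1 and 3 weeks 0 of the 6 tissue iron genes passed the adjusted p, where 5.05% of all genes did without and 2.01% with lactation. Slc40a1 with lactation did pass at -0.58 in the alternative fits, with edgeR on the libraries compared (adjusted p = 0.0150) and with DESeq2 on all 12 libraries (adjusted p = 0.0180) or on those compared (adjusted p = 0.0030). At any fold 1047 of 13646, 864 of 14345 and 1371 of 13848 genes passed in these fits. Apart from Tfrc (-0.67 with lactation) and Slc40a1, log2 fold changes over time lay between -0.15 and 0.19 in these genes. The 4 red cell genes all lay at -1.06 or lower in both states.

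**Figure D4:**
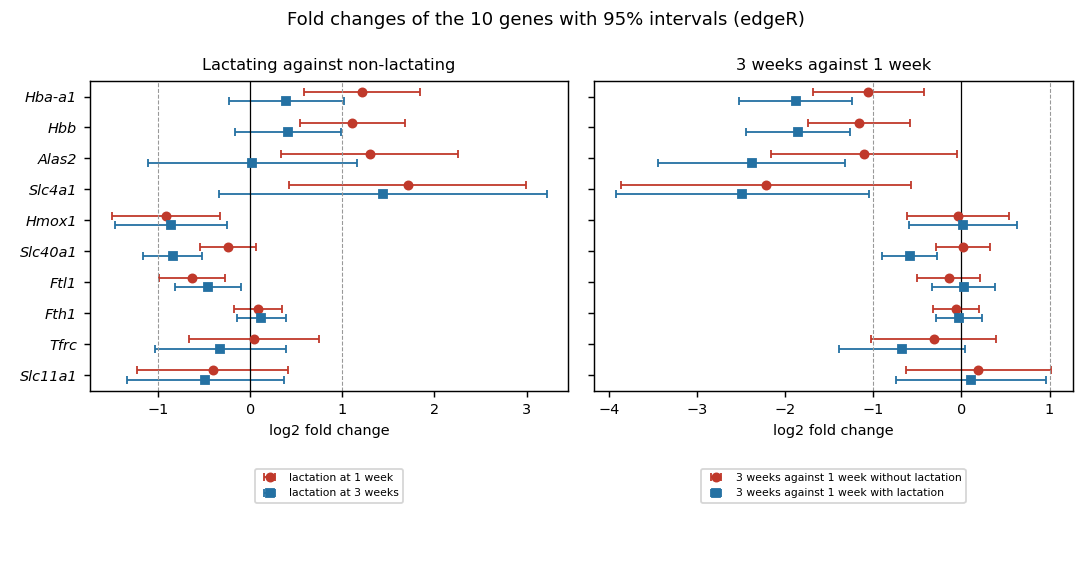
Log2 fold changes of the 10 genes with 95% intervals from edgeR, for lactating against non-lactating rats at each time (left) and for 3 weeks against 1 week in each lactation state (right), with dashed lines at -1 and 1. The red cell genes lie to the right at 1 week and to the left over time, and Slc40a1 at 3 weeks lies at -0.84 with an interval of -1.16 to -0.53.

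The pools also differed in markers of cells that carry these transcripts, and in bulk muscle fewer cells of a type cannot be told apart from less RNA per cell. Of 17 macrophage markers 15 were tested, and 14 of them had a lower estimate with lactation at 1 week and all 15 at 3 weeks. Their summed level was 727 to 833 CPM in 1wk SBI and 460 to 641 CPM in 1wk SBI + Lac, with no overlap, and 532 to 1156 CPM in 3wk SBI and 458 to 751 CPM in 3wk SBI + Lac. The only macrophage marker past the adjusted p was Cd68, a lysosomal protein of macrophages, with a log2 fold change of -0.96 at 1 week (edgeR adjusted p = 0.0417) and -1.08 at 3 weeks (edgeR adjusted p = 0.0150). At 1 week the sum was lower with lactation, as were Hmox1, Ftl1 and Slc40a1. At 3 weeks the sums overlapped, whereas the Slc40a1 pools did not. In lactating rats the mean sum was 559 CPM at 1 week and 572 CPM at 3 weeks, while Slc40a1 went from 17.4 to 11.7 CPM. The part of the sum in the differences of these 3 genes was not tested.

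The skeletal muscle sum was 81371 to 127180 CPM in 1wk SBI and 126013 to 150032 CPM in 1wk SBI + Lac, and 121800 to 162414 CPM in 3wk SBI and 176588 to 200160 CPM in 3wk SBI + Lac. The sum over markers of dividing cells was 36.6 to 65.5 CPM in 1wk SBI and 14.7 to 25.8 CPM in 1wk SBI + Lac, and 13.2 to 35.1 CPM in 3wk SBI and 11.3 to 11.8 CPM in 3wk SBI + Lac. The muscle sums overlapped at 1 week and were higher with lactation at 3 weeks, the dividing cell sums were lower at both times, and the part of either in the results was not tested.

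Markers of other blood cells did not stand higher with the red cell genes at 1 week. The platelet sum was 9.14 to 10.8 CPM in 1wk SBI and 6.26 to 8.29 CPM in 1wk SBI + Lac, and the neutrophil and marrow sum 2.18 to 4.44 and 1.53 to 2.46 CPM, with Elane and Ltf at 0 in all 12 libraries. Pf4 made up most of the platelet sum (means 8.76 of 9.92 CPM in 1wk SBI and 5.84 of 7.08 CPM in 1wk SBI + Lac), and Ppbp had 0 counts. In each 1wk SBI + Lac pool 5 to 6 of the 10 neutrophil and marrow genes were at 0. These sums therefore cannot tell how much blood a pool held. The endothelial sum, a measure of vessel cells, overlapped at 323 to 339 and 319 to 344 CPM. Milk and mammary markers summed to 0.56 to 1.55 CPM in 1wk SBI and 1.15 to 3.46 CPM in 1wk SBI + Lac. At 3 weeks the pools read 2.25, 0.25 and 0.66 CPM without lactation and 41.3, 12.2 and 0.33 CPM with it.

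**Figure D5:**
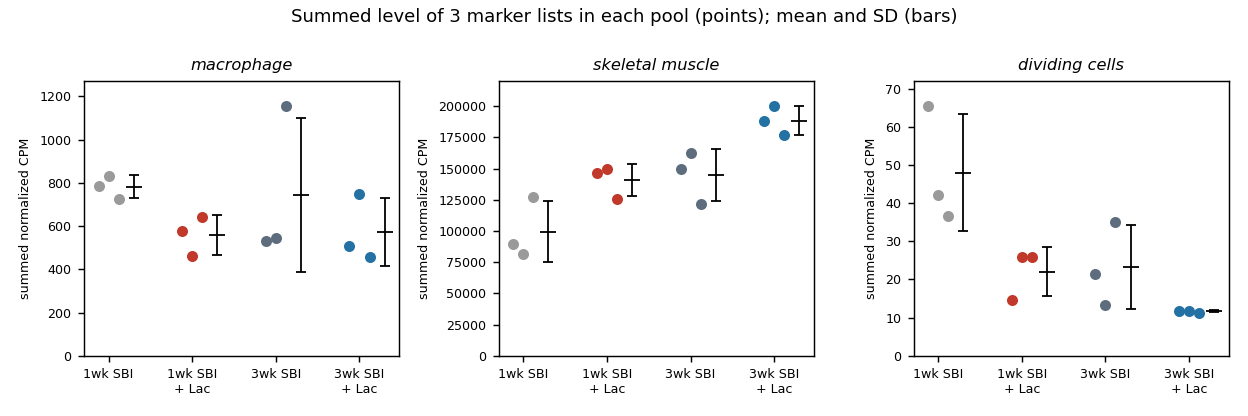
Summed normalized CPM of the macrophage, skeletal muscle and dividing cell marker lists in each pool of the 4 groups, with the mean and SD of 3 pools. The macrophage sum reaches 1156 CPM in the third 3wk SBI pool, which is also the highest 3wk SBI pool for Hmox1, Slc40a1 and Ftl1.

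Of the further genes of heme and iron handling, 0 were called in either lactation comparison, where 0.253% of all genes were at 1 week and 0.74% at 3 weeks. In heme synthesis 13 genes were tested and 0 passed, with median log2 fold changes of 0.18 at 1 week and 0.08 at 3 weeks. Uros, the uroporphyrinogen synthase, had the smallest adjusted p at both times, at 13.4 ± 1.13 against 18.1 ± 0.886 CPM at 1 week (SD, n = 3; log2 fold change 0.43, edgeR adjusted p = 0.0750) and 0.36 at 3 weeks (edgeR adjusted p = 0.114). Fech, the ferrochelatase that inserts iron into heme, had 0.42 at 1 week (edgeR adjusted p = 0.131).

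Among 14 tested genes that scavenge or break down heme and hemoglobin, 0 passed, with medians of -0.12 and -0.08. The smallest adjusted p there was that of Slc48a1, a heme transporter, at 1 week (0.36; edgeR adjusted p = 0.122), and that of Blvra, which reduces biliverdin, at 3 weeks (-0.31; edgeR adjusted p = 0.233). Among 15 tested genes of mitochondrial iron-sulfur assembly, 0 passed, with medians of 0.19 and 0.14, and Hscb had the smallest adjusted p at 3 weeks (-0.55; edgeR adjusted p = 0.0911).

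One gene of iron uptake and transport passed the adjusted p. Slc25a28, mitoferrin 2, which carries iron into mitochondria, read 26.5, 22.7 and 18.5 CPM in 3wk SBI and 33.4, 30.9 and 30.1 CPM in 3wk SBI + Lac. It was higher by a log2 fold change of 0.50 (SE 0.12; edgeR adjusted p = 0.0454). This was the 1 of 12 tested genes of this list to pass at any fold, where 2.54% of all genes did. At 1 week 0 of 12 did, where 0.569% of all genes did. Slc39a8, a metal importer, had 3.02 ± 0.549 against 1.29 ± 0.558 CPM at 1 week (SD, n = 3; log2 fold change -1.20, edgeR adjusted p = 0.124). Of 16 tested genes of iron export, storage and regulation 0 passed, and Bmp6, a signal for hepcidin, had the smallest adjusted p at 1 week (0.60; edgeR adjusted p = 0.135).

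Within groups, pools that were high in one red cell gene were mostly high in the others. Across the 12 libraries, the deviation of Hba-a1 from its group mean on the log2 CPM scale had a Pearson r of 0.98 with that of Hbb, 0.82 with Alas2 and 0.44 with Slc4a1, whose counts are few. Outside the set the closest genes were Ube2e2, Irag2 and Golph3 (r from 0.93 to 0.94), then Jarid2 (0.91) and Gbp6-ps2 (0.88). The deviation of Hmox1 had an r of 0.85 with Ftl1, 0.79 with Slc40a1 and -0.20 with Fth1, and the closest genes outside the set were Adamts16, Trim36, Manba, Lyn and Lilrb3l (0.94 to 0.95). For Tfrc they were Slc35a4, Itgb1bp2, H4f3, Gng3 and Ndufb8 (0.92 to 0.96), and its r with the other 9 genes of the set lay between -0.59 and 0.41. These values describe 12 libraries, whose points share depth, normalization and pooled rats, and the closest genes were the highest of the many compared.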

How the data were processed

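RNA of the pubocaudalis was sequenced by the authors from stranded mRNA libraries. The authors deposited 1 table of gene counts, not normalized for library size. The 1-week columns hold whole counts, and the 3-week columns deposited by the authors hold decimals, taken here as estimated counts (expected counts) and rounded for the tests, although the design written for this work assumed whole counts. The submitters' processing notes name Salmon without a version. The genome build and annotation are not given in the sources used here.

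Counts were fitted with edgeR 4.0.16 in R 4.3.3 (TMM normalization, filterByExpr, robust quasi-likelihood fit over 4 groups and 12 libraries, Benjamini-Hochberg adjustment over 14599 genes). Calls needed both an adjusted p below 0.05 and a log2 fold change beyond 1 in size, the fold cutoff the study used. DESeq2 1.42.0, the study's tool, was an alternative. Intervals are 95% intervals of the fold change. Of the 10 genes every row was named, and of each other pathway list at most the 3 with the smallest adjusted p in each lactation comparison, beside any that were called. Some further red cell genes were also named, for their counts or their share of a sum. Likeness used log2 CPM with a prior count of 2. The genes, lists and tests were chosen with earlier results of these data known. Alternatives were other normalizations, filters, cutoffs and fits, a replicate block, and leaving out each pool. Depth ran from 10082734 to 75634391 counts, so that 3 counts, the limit of a count of 0, correspond to up to 0.33 CPM, for counting error only.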

Additional observations from a re-analysis of the deposited data

How the results depend on the processing

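Calls on these 10 genes were sensitive to the fit, and directions of the red cell genes at 1 week and over time were not. At 1 week 0 genes were called, and 2 were with an adjusted p under 0.1, with edgeR on the libraries compared and with DESeq2 on all 12 libraries, and 4 with DESeq2 on the libraries compared. At 3 weeks 0 became 1 at any fold and 1 with library totals that left out red cell, milk and mitochondrially encoded genes, where Slc40a1 was at -1.05. With those totals 153 of 14614 genes were called. From 1 to 3 weeks without lactation 1 became 0 with no low-count filter and with edgeR on the libraries compared, and 2 with an adjusted p under 0.1, at least 10 counts in every library, either set of library totals and either DESeq2 fit. With lactation 3 became 4 with an adjusted p under 0.1, edgeR on the libraries compared and either DESeq2 fit, and 2 with at least 10 counts in every library or a replicate block. The filter of at least 10 counts left Alas2 and Slc4a1 untested, as their lowest counts in 3wk SBI were 1 and 0. With the block Alas2 was tested and missed the adjusted p. Leaving out single pools gave 0 to 2 calls at 1 week, 0 to 1 at 3 weeks, 0 to 3 over time without lactation, 1 to 2 with it (3 with all pools) and 0 for the interaction.

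The library totals (the second set left out skeletal muscle list genes) were used as the scaling without TMM factors, which would have cancelled them. This was decided after the values were seen, and the muscle set and the thinning to equal depth were added after seeing the data. They moved the median of all genes by -0.25 and -0.21 on the log2 scale at 1 week and by -0.21 and -0.16 at 3 weeks, and Hba-a1 at 1 week was then at 0.99 and 1.03. Signs then turned, in this order of sets, for Tfrc (-0.19 and -0.15) and Fth1 (-0.16 and -0.11) at 1 week, for Alas2 (-0.20 and -0.15) and Fth1 (-0.060 and -0.010) at 3 weeks, over time without lactation for Slc40a1 (-0.18 and -0.17) and Slc11a1 (-0.031 and -0.020), and with it for Hmox1 (-0.15 and -0.13), Ftl1 (-0.13 and -0.12) and Slc11a1 (-0.061 and -0.047).

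Other reversals were of log2 values near 0: Alas2 at 3 weeks with upper-quartile normalization (-0.0042), Slc40a1 over time without lactation with at least 10 counts (-0.0040), a replicate block (-0.013), thinning (-0.060) and edgeR on the libraries compared (-0.0068), Hmox1 over time with lactation with thinning (-0.018), and the interaction of Slc4a1 with thinning (0.21). Leaving out single pools gave, at 1 week, Tfrc -0.24 to 0.29, and at 3 weeks Alas2 -0.30 to 0.76. For the interaction it gave Hmox1 -0.18 to 0.50, Fth1 -0.028 to 0.082, Slc11a1 -0.42 to 0.22, Slc4a1 -0.75 to 4.24 and Ftl1 -0.00083 to 0.41. Over time without lactation it gave Hmox1 -0.49 to 0.20 and Slc40a1 -0.22 to 0.13, and with it Hmox1 -0.22 to 0.24, Ftl1 -0.14 to 0.11, Slc11a1 -0.23 to 0.41 and Fth1 -0.052 to 0.011. The cause was not tested.

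The replicate numbers of the titles did not pair the samples (same-number correlations of deviations from -0.16 to -0.10 at 1 week and from -0.23 to -0.050 at 3 weeks). With a replicate block, 8 in place of 37 genes of all tested were called at 1 week and 64 in place of 108 at 3 weeks, and the number called among the 10 genes changed in no lactation comparison, while Alas2 over time with lactation gave -2.41 (adjusted p = 0.0562). Over all genes DESeq2 on the libraries compared called 332 at 1 week and 175 at 3 weeks. Over time it called 286 without and 253 with lactation, where the main fit called 213 and 113. Depth limits Slc4a1 at 3 weeks, where 3 counts correspond to as much as 0.33 CPM.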
